A study of Mus musculus with 6 samples.

Results

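The phagocyte NADPH oxidase was described here through 6 genes, Cybb, Cyba, Ncf1, Ncf4, Rac1 and Rac2, chosen by symbol through the transcript accession of each array probe. They were measured by 8 probes, and the comparison behind them covered 29752 genes or unnamed transcripts. All samples were of BV2, a murine microglial cell line that grows without limit; microglia are the macrophages that live in the brain. The IL-4 group was given 10 ng/ml of recombinant murine IL-4 in the medium and the PBS group was given PBS, both over 24 hr. Both groups were plated on poly-L-lysine in medium with serum, and RNA of each of the 3 samples per group was hybridised to a Cy3-labelled Agilent array of its own. A single immortalized line stands for microglia in both groups, and no label states that the samples came from separate cultures, so every error and p-value below covers the spread among the arrays at hand, and that spread may be technical.

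The phagocyte oxidase, also called NOX2, moves electrons from NADPH across a membrane to oxygen and so makes superoxide, which phagocytes use against microbes and as a signal. Its catalytic core is a membrane pair, gp91phox and p22phox. It is silent until subunits from the cytosol and a small GTPase of the Rac family reach that pair. In microglia the enzyme is known as a main source of superoxide. IL-4, a cytokine of type 2 immunity, puts macrophages into the state called alternative activation.

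The values that chose the genes include this same comparison of IL-4 with PBS, so differences of the 6 genes are given as a description; where the fit's threshold is named for them, the call describes these arrays and supports nothing further. A value is the log2 of a probe's processed signal minus that array's 75th percentile on the same scale, unless a signal is named. Differences are taken between arrays for the same probe. Brightness is compared between probes only to choose or name a probe or gene, and sums of marker signals add probes of several genes. The 3 IL-4 arrays and PBS replicate 1 shared 1 scan image, taken as slide 1, and PBS replicates 2 and 3 shared another, slide 2. The difference of the IL-4 arrays from PBS replicate 1 is therefore given beside the difference over all 6 arrays for the subunit probes. It is also given for the called genes of the lists around the oxidase, and for most other genes it is not printed. All 8 probes were well above background on all 6 arrays. Across arrays, 34653 to 38649 of 39429 probes were well above background, no spot was saturated, and precision is limited by having 3 arrays per group. Of 12 fixed markers of microglia and macrophages, 12 were well above background on every array, and 7 were above the array percentile on every array. Well above background on every array were also 6 of 6 oligodendrocyte, 9 of 11 neutrophil and 5 of 7 neuron markers. The same held for 4 of 6 fibroblast, 4 of 7 lymphocyte and 3 of 6 astrocyte markers. Being well above background thus does not by itself mark a cell type here.

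Cybb encodes gp91phox, the subunit that holds the haem and flavin groups and carries the electrons. Its processed signal was 247, 315 and 271 on the IL-4 arrays, against 705, 603 and 699 on the PBS arrays. Relative to the array percentile this was -1.56, -1.45 and -1.44 with IL-4 and -0.31, -0.16 and -0.05 with PBS. The groups were far apart, with a gap of 1.13 between the highest IL-4 and the lowest PBS array, while the IL-4 arrays spanned 0.12 and the PBS arrays 0.26. Over all arrays Cybb fell, with a log2 fold change of -1.30 ± 0.11 (SE), which made it 2.47-fold lower with IL-4. Only 17 of 29752 genes had a larger fall. Against PBS replicate 1 the IL-4 arrays stood at -1.24, -1.13 and -1.13, a mean of -1.17 that made Cybb 2.24-fold lower within slide 1. Whether fewer cells make Cybb mRNA or each cell holds less of it cannot be told apart in RNA of a whole culture. Without PBS replicate 1 the fit called 12654 of all 29752 genes. It placed Cybb past its threshold there (-1.37) and over all arrays, where 997 genes were called. It did not do so with slide as a block (-1.17), nor when 1 array was left out among IL-4 replicates 1 (-1.27), 2 (-1.32) and 3 (-1.32), or among PBS replicates 2 (-1.30) and 3 (-1.24).

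Cyba encodes p22phox, the partner that stabilizes gp91phox and offers the docking site for the organizer. Its brighter probe read 3.33, 3.27 and 3.37 on the IL-4 arrays, against 3.66, 4.16 and 4.20 on the PBS arrays. Its dimmer probe read 1.08, 1.02 and 1.104 on the IL-4 arrays, against 1.34, 1.70 and 1.78 on the PBS arrays. On both probes every IL-4 array lay below every PBS array, and PBS replicate 1 lay nearest to the IL-4 arrays. The log2 fold change was -0.69 ± 0.15 on the brighter probe and -0.54 ± 0.13 on the dimmer one. Within slide 1 the differences were -0.34 and -0.27, smaller than the offset of PBS replicate 1 from the mean of the other PBS arrays, which was -0.52 and -0.40. Cyba did not pass over all arrays and passed without PBS replicate 1 (-0.86), when no PBS array of the slide of the IL-4 arrays is left. In that fit 12654 of all 29752 genes passed.

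Ncf1 encodes p47phox, the organizer that is phosphorylated on activation and carries the cytosolic complex to p22phox. It read -1.24, -1.28 and -1.25 on the IL-4 arrays, against -1.02, -0.55 and -0.36 on the PBS arrays. The IL-4 arrays were nearly alike, with a range of 0.04, whereas the PBS arrays spanned 0.65, the widest of the 8 probes. The groups did not overlap, and the gap between them was 0.22. The log2 fold change was -0.61 ± 0.17 over all arrays and the difference within slide 1 was -0.24. Ncf1 did not pass over all arrays and passed without PBS replicate 1 (-0.80), as 12654 of all 29752 genes did.

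Ncf4 encodes p40phox, which binds a phosphoinositide of phagosome membranes and keeps the oxidase active there. It read 2.22, 2.07 and 2.21 on the IL-4 arrays, against 2.16, 2.29 and 2.32 on the PBS arrays. The groups overlapped, since IL-4 replicates 1 and 3 lay above PBS replicate 1. The log2 fold change was -0.09 ± 0.10, its error as large as the difference, and within slide 1 the sign turned, at 0.0097.

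**Figure D1:**
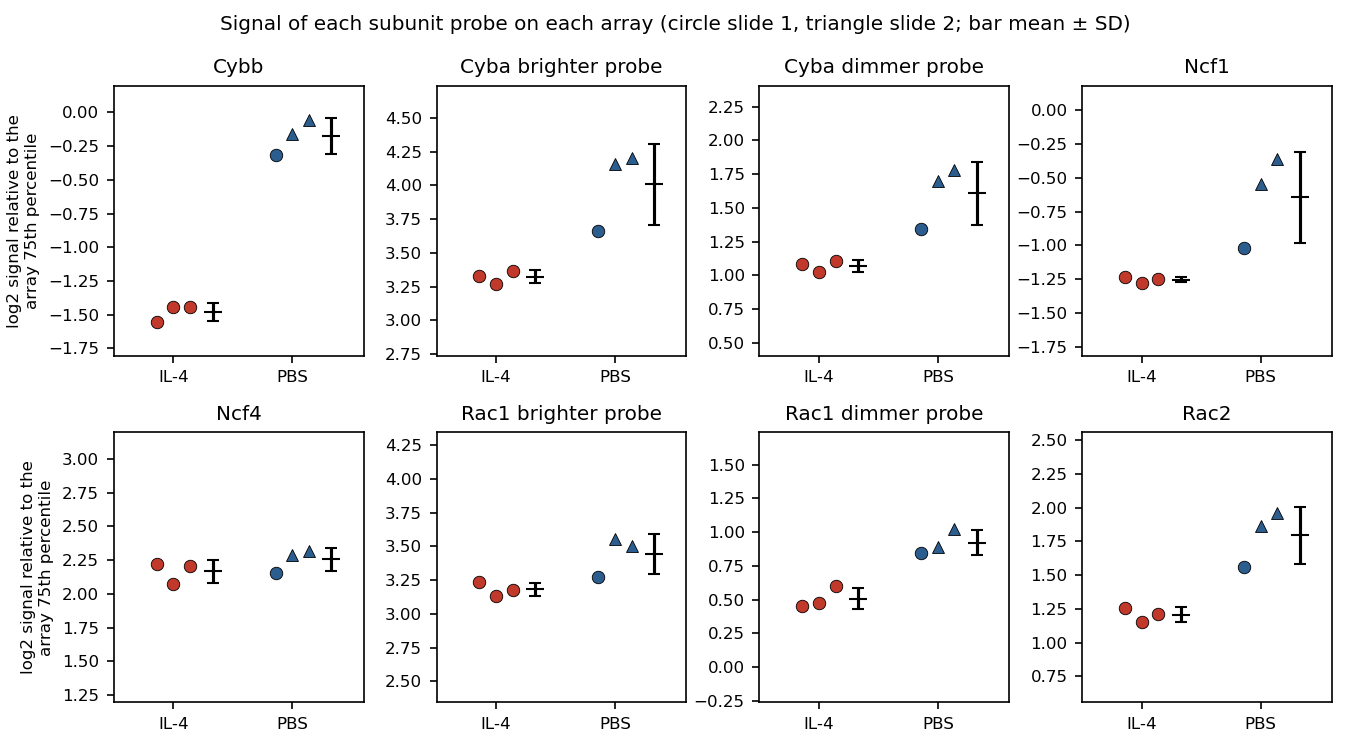
Log2 processed signal minus each array's 75th percentile (vertical axis, a span of 2 log2 units in every panel) for the 8 probes of the 6 subunit genes, with IL-4 arrays in red on the left and PBS arrays in blue on the right. Circles are arrays of slide 1, triangles arrays of slide 2, and bars the mean ± SD of 3 arrays. The groups are farthest apart for Cybb and overlap for Ncf4, and the PBS array of slide 1 is the lowest PBS array in every panel.

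Rac1 and Rac2 encode the GTPases that switch the assembled enzyme on. Rac1 is made in nearly all cells, and Rac2 in blood cells. Rac2 was spotted 10 times on each array, so its values are means of copies whose log2 SD within an array was 0.0595 to 0.089. It read 1.26, 1.16 and 1.21 on the IL-4 arrays, against 1.56, 1.87 and 1.96 on the PBS arrays. The groups did not overlap, with a gap of 0.30 between them, which was smaller than the span of the PBS arrays (0.40). The log2 fold change of Rac2 was -0.59 ± 0.13, and the difference within slide 1 was -0.35. Rac2 did not pass over all arrays and passed without PBS replicate 1 (-0.70), as 12654 of all 29752 genes did.

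The brighter probe of Rac1 read 3.23, 3.13 and 3.18 on the IL-4 arrays, against 3.27, 3.55 and 3.50 on the PBS arrays. The dimmer probe read 0.45, 0.47 and 0.60 on the IL-4 arrays, against 0.85, 0.89 and 1.02 on the PBS arrays. Neither probe showed an overlap, but the gap was 0.04 on the brighter probe and 0.25 on the dimmer one. The probes also differed in size, with log2 fold changes of -0.26 ± 0.11 and -0.41 ± 0.10 over all arrays. Within slide 1 they stood at -0.09 and -0.34, so the size of the Rac1 difference depends on the probe. Rac1 did not pass over all arrays and its brighter probe passed without PBS replicate 1 (-0.35), as 12654 of all 29752 genes did.

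**Figure D2:**
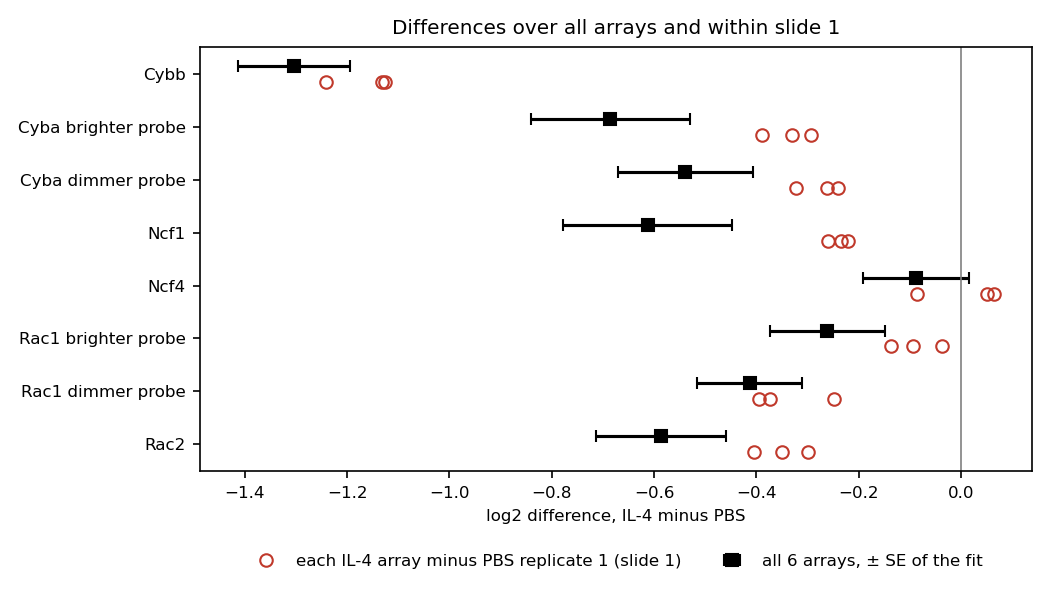
Log2 difference of IL-4 minus PBS (horizontal axis) for each of the 8 probes. Black squares are the fit over all 6 arrays with its SE, and open circles are the 3 IL-4 arrays, each minus PBS replicate 1 of the same slide. Cybb keeps most of its difference within slide 1, at -1.17 against -1.30, whereas Ncf1 goes to -0.24 within slide 1 against -0.61 over all arrays.

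Counted over the 6 genes, the log2 fold change was below 0 for 6, with a median of -0.60 against -0.05 over all genes tested. In 5 of 6 the groups did not overlap, with IL-4 lower; 38.3% of all genes had groups that did not overlap, and 20% of all genes had every IL-4 array below every PBS array. Of the 6 genes 1 fell by the fit (limma adjusted p under 0.05) and 0 rose, where 3.35% of all genes were called, 2.54% of all genes being lower and 0.807% higher. At an unadjusted p under 0.05 the fit counted 5 of 6, where 34.1% of all genes were counted. With slide as a block it called 0 of 6, where 0.0303% of all genes were called, 0.0101% being lower and 0.0202% higher. That fit had 3 of 6 at an unadjusted p under 0.05, where 10.2% of all genes were. Within slide 1 the median was -0.29 against 0.0055 over all genes, and 5 of 6 genes had every IL-4 array below PBS replicate 1, where 25.7% of all genes did. Since the genes were chosen with this comparison in view, none of these shares is read as a result about them.

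The PBS arrays themselves were not alike. PBS replicate 1, the PBS array of slide 1, was the lowest of the 3 PBS arrays for 8 of 8 probes and 6 of 6 genes, where this held for 50.6% of all genes. Its offset from the average of the 2 other PBS arrays had a median of -0.31 over the 6 genes, against -0.08 over all genes. The offset was -0.56 for Ncf1, -0.52 for Cyba, -0.35 for Rac2, -0.26 for Rac1, -0.21 for Cybb and -0.15 for Ncf4 on the brightest probes. On these probes it exceeded in size the difference within slide 1 for Cyba, Ncf1, Rac1 and Ncf4, equalled it for Rac2 at 2 decimals, and was far below it for Cybb. On the dimmer probe of Rac1 the order was the opposite, with an offset of -0.11 and a difference within slide 1 of -0.34. With 1 PBS array on slide 1, an effect of the slide and the spread between PBS samples cannot be told apart.

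The subunit genes fell into patterns of unlike size over the 6 arrays. With each profile centred on its own mean, the root mean square difference between Cyba and Ncf1 was 0.061, between Ncf1 and Rac2 0.0779 and between Cyba and Rac2 0.0804. Rac1 and Ncf4 were 0.101 apart. Cybb was 0.331 from Cyba, 0.369 from Ncf1, 0.368 from Rac2 and 0.613 from Ncf4. Cyba, Ncf1 and Rac2 were thus closest to each other, and Cybb stood off from them by the size of its difference.

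By the same measure, the genes most like Cybb among 17735 named candidates were Mgst2, a microsomal glutathione transferase, at 0.0637, Rap1gap, which switches off the GTPase Rap1, at 0.0765, and Bmf, a pro-apoptotic member of the BCL2 family, at 0.0783. Their log2 fold changes were -1.41, -1.20 and -1.24, and 8 candidates in all lay within 0.1 of Cybb. For Cyba the nearest was Rell1 at 0.0277, for Ncf1 Bicral at 0.0205 and for Rac2 Bub1b, a mitotic checkpoint kinase, at 0.0135, followed by the TGF-beta receptor gene Tgfbr2 at 0.0173. For Rac1 it was Arfgap3 at 0.00837 and for Ncf4 Ostc at 0.0156. The rest of the 3 nearest were Tcn2 and Napsa for Cyba, H2ac11 and Fcgr2b for Ncf1, and Naxe for Rac2. For Rac1 they were Gsdmd and Hdgfl2, and for Ncf4 Toe1 and Fads1. Patterns like those of these subunits were common, with 326 candidates within 0.1 of Cyba, 295 of Ncf1, 698 of Rac2, 3286 of Rac1 and 3367 of Ncf4. The distances rest on 6 arrays that share the slide split, and they are a description.

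The stretch before the start of transcription is shown for the 3 genes that the RefSeq promoter table of GRCm38.p6 holds, which are also the 3 subunit genes with the lowest log2 fold changes over all arrays. Each line gives the 250 bases before the start, read in the direction of the gene, with motif matches in capitals. The Cybb stretch lies at chrX:9469325-9469574, minus strand, the Cyba stretch at chr8:122432941-122433190, minus strand, and the Ncf1 stretch at chr5:134229626-134229875, minus strand.
Cybb: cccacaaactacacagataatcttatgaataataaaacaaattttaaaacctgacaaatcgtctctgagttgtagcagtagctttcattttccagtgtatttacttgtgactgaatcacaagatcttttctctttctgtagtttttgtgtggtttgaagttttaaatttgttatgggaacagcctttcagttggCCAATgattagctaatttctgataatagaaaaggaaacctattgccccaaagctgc
Cyba: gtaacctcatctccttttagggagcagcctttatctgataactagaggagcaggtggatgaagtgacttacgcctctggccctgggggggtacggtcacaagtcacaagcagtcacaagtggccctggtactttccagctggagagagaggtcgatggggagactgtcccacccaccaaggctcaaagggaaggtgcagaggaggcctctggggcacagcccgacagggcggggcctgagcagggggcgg
Ncf1: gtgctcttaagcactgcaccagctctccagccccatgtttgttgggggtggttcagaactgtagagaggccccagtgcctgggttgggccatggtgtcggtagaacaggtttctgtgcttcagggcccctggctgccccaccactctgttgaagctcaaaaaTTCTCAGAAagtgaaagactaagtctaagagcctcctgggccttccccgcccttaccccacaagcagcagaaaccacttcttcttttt
Both strands were searched for GAGGAA (a core of PU.1 sites), GGAA and GAAA with 2 bases between them (a joint site of PU.1 and IRF factors), TTC and GAA with 4 bases between them (a spacing that STAT6 binds), TTCNNNGAA (the spacing of other STAT factors), CCAAT and TATAAA. The capitals in Cybb mark a CCAAT that starts 56 bases before the start of transcription. CCAAT was present in 33.8% of 32851 promoter stretches of this length. The capitals in Ncf1 mark TTCTCAGAA, a match to TTCNNNGAA that starts 88 bases before the start of transcription, and 7.02% of stretches held one. No other match to these 6 strings was in the 3 stretches, where GAGGAA was in 23.3% of all stretches, TATAAA in 12.4%, the STAT6 spacing in 5.85% and the joint PU.1 and IRF site in 2.3%. The stretches differed in composition, with 34% G or C for Cybb, 60% for Cyba and 54.4% for Ncf1. Matches are letters in a window and not sites.

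By position, the annotation puts Cybb on chromosome X, Cyba on 8, Ncf1 and Rac1 on 5, and Ncf4 and Rac2 on 15. Ncf4 and Rac2 lie close together, with 16 annotated genes between them, of which 8 were tested. By the limma fit 0 of these 8 rose and 0 fell (1 had an unadjusted p under 0.05), at a median log2 fold change of -0.09.

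Around the subunits, 7 lists of genes of the oxidase and its surroundings were read from the same fit, and 6 of their 93 tested genes passed it, or 6.45%, where 3.35% of all genes did. At an unadjusted p under 0.05 there were 33 of the 93, or 35.5%, close to the 34.1% of all genes. Among 7 tested genes of other NADPH oxidases and their partners, 0 rose and 0 fell by limma (2 at an unadjusted p under 0.05; median 0.10). Rac3, another GTPase of the Rac family, had 0.33 ± 0.11 and the dual oxidase gene Duox1 0.48 ± 0.13 (adjusted p = 0.0923 and 0.0641). Within slide 1 their differences were 0.14 and 0.21.

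Among 9 genes that stabilize, gate or electrically balance the oxidase, 0 rose and 0 fell by limma (3 at an unadjusted p under 0.05; median -0.10). The brightest, Rap1b, had a log2 fold change of 0.24 ± 0.11 and Arhgdia, which holds Rac proteins in the cytosol, -0.26 ± 0.17 (adjusted p = 0.174 and 0.318). Among 15 exchange factors and GTPase-activating proteins of Rac, 1 rose, 1 fell and 13 did not pass (median -0.08). Tiam1, a Rac exchange factor, rose with a log2 fold change of 1.97 ± 0.40 (adjusted p = 0.0467). Its signal was 374, 585 and 357 on the IL-4 arrays, against 236, 50.5 and 102 on the PBS arrays, so the PBS arrays differed much among themselves, and the difference within slide 1 was 1.04. Sos1, an exchange factor of Ras and Rac, fell, with a log2 fold change of -0.70 ± 0.15 (adjusted p = 0.0482), and -0.53 within slide 1. Its signal was low, at 35.7 to 76.6 over the arrays, where the array percentile was 674 to 876. Vav1, an exchange factor of blood cells, had -0.02 ± 0.11 and Arhgap25 -0.38 ± 0.12 (adjusted p = 0.885 and 0.0804).

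Among 20 kinases and lipid enzymes that trigger assembly, Pik3cd fell and 19 did not pass (median -0.23). Pik3cd encodes the leukocyte phosphoinositide kinase p110 delta and had a log2 fold change of -0.58 ± 0.10 (adjusted p = 0.0353). The difference within slide 1 was -0.54, and the call was lost when slide entered the model (adjusted p = 0.198). Pla2g4a, the cytosolic phospholipase that releases arachidonate, had -0.35 ± 0.11 and Mapk14, the p38 kinase, -0.29 ± 0.12 (adjusted p = 0.0756 and 0.129).

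Among 20 transcription factors described for genes of the oxidase, Irf8 and Cebpd fell, 0 rose and 18 did not pass (median -0.21). Irf8, a factor of the macrophage lineage, had a log2 fold change of -0.67 ± 0.12 (adjusted p = 0.0395), and -0.48 within slide 1. Cebpd, a factor of acute inflammation, had -0.54 ± 0.11 (adjusted p = 0.0461), and -0.44 within slide 1. Spi1, which encodes PU.1, had -0.53 ± 0.15 and did not pass (adjusted p = 0.0666), and its difference within slide 1 was -0.20. It is named outside the naming rule, after its values were seen. The brightest factors, Hoxa9 and Cebpb, had -0.0050 ± 0.13 and 0.48 ± 0.12 (adjusted p = 0.981 and 0.0555).

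Among 14 genes that remove superoxide and peroxide, Prdx2, a cytosolic peroxiredoxin, fell and 13 did not pass (median -0.10). Its log2 fold change was -0.57 ± 0.11 (adjusted p = 0.0427), and -0.41 within slide 1. The bright genes Txn1 and Prdx1 had -0.08 ± 0.11 and 0.16 ± 0.11 (adjusted p = 0.607 and 0.343). Among 8 tested genes that supply NADPH, 0 rose and 0 fell by limma (3 at an unadjusted p under 0.05; median -0.16). Taldo1 and Me1, the brightest of them, had 0.00070 ± 0.10 and -0.01 ± 0.11 (adjusted p = 0.996 and 0.942). Within slide 1 the medians of the 7 lists ran from -0.11 (kinases and lipid enzymes) to 0.10 (superoxide and peroxide removal). The median of all genes there was 0.0055. With slide as a block, or without any 1 array other than PBS replicate 1, none of the genes of the 7 lists was called. Of all 29752 genes 9 were called with slide as a block, and 0 to 3 without 1 such array. Without PBS replicate 1 the fit called 41 of the 93 tested list genes, where it called 12654 of all 29752 genes.

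**Figure D3:**
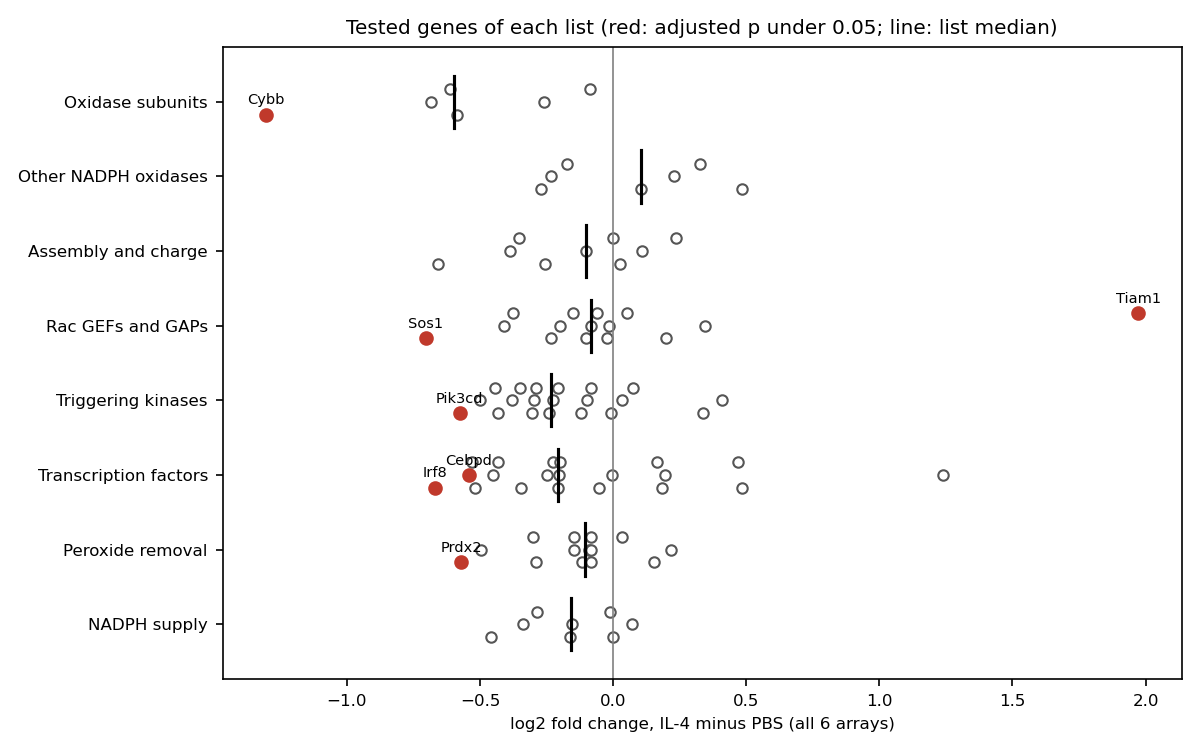
Log2 fold change of IL-4 minus PBS over all 6 arrays (horizontal axis) for the tested genes of the subunit list and of 7 lists around it (rows). Each circle is a gene, red and named where the adjusted p was under 0.05, and black lines are list medians, of which that of the subunits is -0.60. Tiam1 at 1.97 and Cybb at -1.30 are the farthest from 0.

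Markers of cell types were read in the same way. Of the 12 microglia and macrophage markers 0 rose, 3 fell (Aif1, Tyrobp and Lyz2) and 9 did not pass, with a median of -0.37, and -0.20 within slide 1. Of all genes 3.35% were called. The log2 fold change was below 0 for 11 of the 12. By limma 7 of the 12 had an unadjusted p under 0.05, where 34.1% of all genes did. With slide as a block 3 of the 12 had one, where 10.2% of all genes did. Within slide 1 Aif1 stood at -0.49, Tyrobp at -0.54 and Lyz2 at -0.55, and with slide as a block none of the 3 passed (adjusted p = 0.231, 0.223 and 0.225). The summed signal of the 12 was 53.3 to 59 times the array percentile on the IL-4 arrays, against 59.8 to 76 times on the PBS arrays. These sums did not overlap. Without Trem2, the highest of the 12, they overlapped, at 35.6 to 38.7 with IL-4 and 38.5 to 50.2 with PBS. Trem2 is named after its values were seen.

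Of 11 tested neutrophil markers, a cell type rich in this oxidase, S100a8 fell and 10 did not pass (median 0.07), and S100a8 did not pass with slide as a block (adjusted p = 0.351). The signal of S100a8 was low, at 41.7 to 118.7 over the arrays, where the array percentile was 674 to 876. By limma 4 of the 11 had an unadjusted p under 0.05. By limma 0 rose and 0 fell among 5 neuron, 4 astrocyte, 6 oligodendrocyte, 5 fibroblast and 6 lymphocyte markers tested. At an unadjusted p under 0.05 there were 1, 1, 2, 1 and 4 of them in that order of lists, and the medians were 0.03, 0.03, 0.06, -0.05 and 0.61. The lymphocyte median was 0.11 within slide 1.

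For the neutrophil, lymphocyte, oligodendrocyte and neuron lists the summed signals also did not overlap between the groups, here with IL-4 higher. In each of these lists 1 gene made up most of the sum on all IL-4 arrays. Of single genes over the whole fit, 38.3% had groups that did not overlap. The neutrophil sum was 17.9 to 21.1 with IL-4 and 4.38 to 14.3 with PBS, of which Elane, which did not pass (adjusted p = 0.101), made up 83.9% to 89.1% with IL-4 and 44.2% to 82% with PBS. Without Elane the neutrophil sums overlapped, at 2.3 to 2.89 with IL-4 and 2.31 to 2.62 with PBS. The lymphocyte sum was 9.69 to 11.5 with IL-4 and 2.98 to 6.52 with PBS, and without Cd4 (adjusted p = 0.0585) it was 1.81 to 1.93 with IL-4 and 0.93 to 1.51 with PBS, still apart. The oligodendrocyte sum was 3.42 to 3.89 with IL-4 and 1.98 to 3.37 with PBS, and without Mog (adjusted p = 0.0715) it overlapped, at 0.555 to 0.626 with IL-4 and 0.602 to 0.691 with PBS. The neuron sum was 2.12 to 2.49 with IL-4 and 1.68 to 1.94 with PBS, and without Snap25 (adjusted p = 0.0847) it overlapped, at 0.437 to 0.491 with IL-4 and 0.44 to 0.473 with PBS. These 4 genes are named after their values were seen. Elane and Cd4 had no value on PBS replicate 2 in the fit, since outlier spots were left out. The sums used that array as well. The log2 fold change was 1.78 for Elane, 1.42 for Cd4, 0.82 for Mog and 0.38 for Snap25. Within slide 1 the differences were smaller, at 0.53, 0.78, 0.19 and 0.26 in that order. The sums overlapped for astrocyte markers (9.56 to 17.8 with IL-4, 8.64 to 14.7 with PBS) and fibroblast markers (0.315 to 0.4 with IL-4, 0.352 to 0.41 with PBS). Aqp4, named after its values were seen, made up 94.4% to 97.1% of the astrocyte sum with IL-4 and 94.1% to 96.7% with PBS. It had no value on PBS replicate 3 in the fit. Without Aqp4 the astrocyte sums were apart, at 0.516 to 0.544 with IL-4 and 0.482 to 0.507 with PBS. Not well above background on all arrays of either group were Stmn2, Slc17a7, Slc1a3, Gja1, Lum and Ms4a1. The part of these markers in the subunit differences was not tested.

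**Figure D4:**
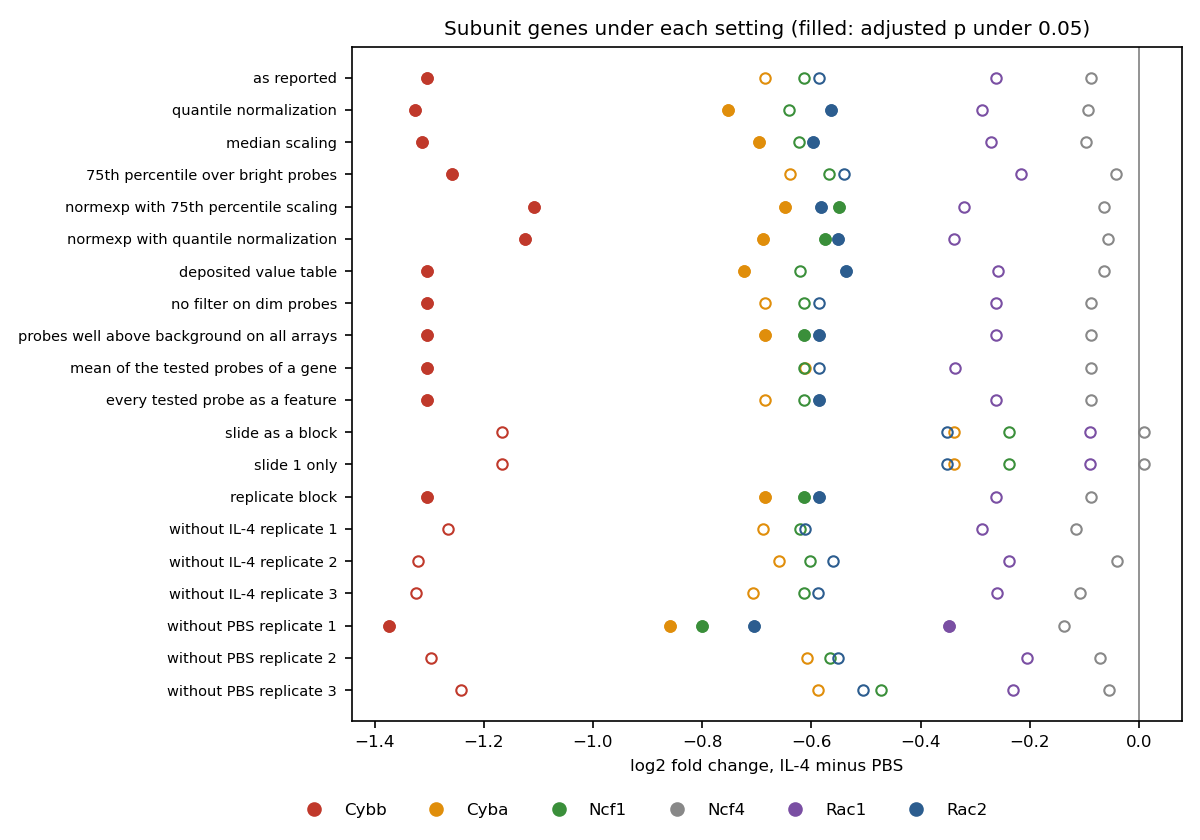
Log2 fold change of IL-4 minus PBS (horizontal axis) for the 6 subunit genes under the reported setting and 19 alternatives (rows), filled where the adjusted p was under 0.05. Cybb stays between -1.37 and -1.11, and Cyba, Ncf1, Rac1 and Rac2 move towards 0 when slide is a block or slide 1 is used alone.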

How the data were processed

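The authors deposited Agilent scanner files of 6 single-colour arrays, whose spot intensity values came from the program Feature Extraction, version 11.0.1.1, as recorded per the file headers, with background subtracted and trends within the array removed. Their deposited value table, on a log2 scale by its values, has a median of 6.92 in every column and correlated at 0.9991 or above with that array's own log2 signal; its normalization is not stated here by any label or header. Control spots and outlier spots (87 to 394 per array) were left out, except that marker sums keep outlier spots, and copies of a probe were averaged. From each log2 signal the array's own 75th percentile was subtracted. Probe accessions were matched to RefSeq symbols (27234 of 39429 probes). Probes were kept (35979) if all arrays of 1 group or both had them well above background, and the brightest stood for a gene. IL-4 and PBS were compared with limma 3.58.1 in R 4.3.3, without a block, with Benjamini-Hochberg adjustment over 29752 genes and a threshold of 0.05. The limma fit, but not the steps before it, was tested on simulated data, which held no effect of the slide. Normexp (offset 50), an alternative, used median spot signals, since the files hold no mean spot signal. Alternatives covered scaling, background correction, filters, probes, slide, replicate number and left-out arrays. Genes were named by a fixed rule: all subunits; the called genes of a list (at most 4) and its 2 brightest others; and the 3 nearest patterns per subunit. Members and lists were chosen with earlier results of these data known. A label that mentions human blood goes against all others and was not used. The series text says untreated where the labels say PBS. Some genes of the lists are not reported here and were left out of the list counts.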

Additional observations from a re-analysis of the deposited data

How the results depend on the processing

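The log2 fold change of Cybb, Cyba, Ncf1, Rac1 and Rac2 was below 0 under all 19 alternatives; that of Ncf4 was below 0 under 17 and turned to 0.0097 with slide as a block and on slide 1 alone. Cybb passed under 12 alternatives, Rac2 under 9, Cyba under 8, Ncf1 under 5, Rac1 under 1 and Ncf4 under 0. The number of subunit genes called, 1 as reported, was 3 with quantile normalization, median scaling or the deposited value table, 4 with normexp (75th percentile or quantile) or with the strict filter (a probe must be bright, that is well above background, on all arrays), 2 with every probe as a feature, 0 with slide as a block or slide 1 alone, and 0 to 5 when 1 replicate was left out. For all genes, 997 as reported, it was 2637 with quantile normalization, 1733 with median scaling, 523 with the percentile taken over bright probes alone (bright on all arrays), 4058 and 3096 with normexp and the 75th percentile or quantile, 2299 with the deposited table, 15 with no filter, 3808 with the strict filter, 605 with the mean of a gene's probes, 9 with slide as a block, 1 on slide 1 alone, and 0 to 12654 when 1 replicate was left out (6108 to 15555 at an unadjusted p under 0.05, limma). The 12654 genes and the 5 subunit genes came from the fit without PBS replicate 1. Of the 997, 240 were higher and 757 lower. Normexp with the 75th percentile gave 2032 higher and 2026 lower, and the strict filter 1830 higher and 1978 lower. The lists around the oxidase held 6 called genes as reported, 10 with quantile normalization, 0 with slide as a block, and 0 to 41 when 1 replicate was left out; under alternatives added for this count after seeing the data they held 1 with the percentile over bright probes, 19 and 12 with normexp and the 75th percentile or quantile, 0 with no filter, 15 with the strict filter, 3 with the mean of a gene's probes and 0 on slide 1 alone. Whether replicate numbers pair the samples is not settled by 3 numbers. The deviations of IL-4 and PBS samples of the same number correlated at 0.083, -0.0155 and 0.296. Both samples of replicates 1 and 3 correlated best with their own number, and both samples of replicate 2 correlated better with another number. With the replicate block 4 subunit genes, 3770 genes in all and 11 list genes were called. The cause of these shifts was not tested; in the fits without 1 array and on slide 1 alone fewer samples are left, and without PBS replicate 1 slide and treatment cannot be told apart.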
